A study of Mus musculus with 9 samples.

Results

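The 40 genes described here are HIF targets and genes of glycolysis, chosen by a fixed list of mouse symbols out of the 18755 genes counted in 4T1 primary tumors. They are 17 glycolytic enzymes, 3 regulators of glycolysis and of pyruvate entry into mitochondria, 4 glucose and lactate transporters, 13 other HIF targets and the 3 HIF subunits Hif1a, Epas1 and Arnt. The list was drawn up with earlier results of these data known, though its rule uses no measured value. All 40 passed the filter on low counts. 4T1 is a single mouse breast cancer cell line, injected into mammary fat pad number 9 of female BALB/c mice aged 6 to 10 weeks. From day 15 after injection, mice received for 5 days either BI 853520 (BI), a small molecule inhibitor of focal adhesion kinase (FAK), at 50 mg/kg by gavage (6 tumors), or 0.5% Natrosol, the vehicle (3 tumors). Each library came from pieces of a whole tumor, so that tumor cells and host cells were measured together, and all tumors of both groups grew from the same cell line. The comparison asks which of these genes differed in RNA level between tumors of BI-treated and vehicle-treated mice.

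Hypoxia inducible factors (HIF) are transcription factors made of an oxygen-regulated alpha subunit, Hif1a or Epas1 (HIF2 alpha), and the constant partner Arnt. When oxygen is plentiful, prolyl hydroxylases of the Egln family mark the alpha subunit for degradation through Vhl, so that its activity is set largely by protein stability and less by RNA level. When oxygen is scarce, HIF binds a short core sequence near its targets and raises genes of glucose uptake, glycolysis, pH control and mitochondrial turnover, and the core of poorly perfused tumors is a well-known site of this response.

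The short core bound by HIF was looked up in the promoters of the members, as a description of the DNA and not as evidence of binding. RefSeq promoter windows (mouse build GRCm38.p6, 250 bases before to 50 bases after the start) were at hand for 36 of the 40 members, and the first window listed of each was used. The letters ACGTG, read on either strand, occurred in 20 of these 36 windows (55.6%), against 25.4% of the windows of all tested genes and 19.7% of all promoters. With GCGTG counted as well, the shares were 80.6%, 61.6% and 43.8%. ACGTG stood in 8 of the 11 windows of other HIF targets (72.7%) and in 7 of the 17 windows of glycolytic enzymes (41.2%). This contrast depends on the use of first windows. The enzymes Hk1, Aldoa and Pkm held ACGTG only in a further window, which was not counted, and no other HIF target did. ACGTG overlaps the E-box CACGTG, which 5 of the 36 windows held. The GC content of the windows also differed, with a median of 63.5% for the members, 60.7% for tested genes and 52.7% for all promoters. Within the members it was 69.0% for other HIF targets and 57.3% for glycolytic enzymes, and its part in the motif shares was not tested. Many members are known as HIF targets, so a high share among them is no independent finding. The windows below are of 6 members that differed between BI and vehicle tumors at an edgeR adjusted p of at most 0.05. Among such members, the gene with the smallest p in each role and direction that has a window was taken. Car9, which is widely used as a marker of hypoxia, was added. All 6 windows run 5′ to 3′ on the strand of the gene, with ACGTG and GCGTG, on either strand, in capitals.
Slc2a1 (chr4:119108495-119108794, plus strand): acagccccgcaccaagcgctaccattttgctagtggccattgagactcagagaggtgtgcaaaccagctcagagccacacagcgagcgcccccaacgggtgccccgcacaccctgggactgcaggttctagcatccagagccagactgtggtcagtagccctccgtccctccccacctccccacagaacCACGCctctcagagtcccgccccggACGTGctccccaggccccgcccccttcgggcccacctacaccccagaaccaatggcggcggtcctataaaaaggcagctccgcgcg
Pgk1 (chrX:106186850-106187149, plus strand): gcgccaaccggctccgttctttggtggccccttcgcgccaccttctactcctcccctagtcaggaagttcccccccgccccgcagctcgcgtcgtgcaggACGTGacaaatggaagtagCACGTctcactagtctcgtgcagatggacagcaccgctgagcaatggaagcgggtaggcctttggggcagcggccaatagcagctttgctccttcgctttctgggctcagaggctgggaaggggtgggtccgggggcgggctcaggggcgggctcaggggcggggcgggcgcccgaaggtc
Pdk1 (chr2:71872974-71873273, plus strand): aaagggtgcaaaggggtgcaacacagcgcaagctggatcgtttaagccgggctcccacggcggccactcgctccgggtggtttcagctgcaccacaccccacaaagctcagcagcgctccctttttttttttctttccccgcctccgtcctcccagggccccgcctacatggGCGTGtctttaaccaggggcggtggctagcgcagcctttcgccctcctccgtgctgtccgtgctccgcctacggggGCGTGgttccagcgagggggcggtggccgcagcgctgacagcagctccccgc
Pfkfb3 (chr2:11553880-11554179, minus strand): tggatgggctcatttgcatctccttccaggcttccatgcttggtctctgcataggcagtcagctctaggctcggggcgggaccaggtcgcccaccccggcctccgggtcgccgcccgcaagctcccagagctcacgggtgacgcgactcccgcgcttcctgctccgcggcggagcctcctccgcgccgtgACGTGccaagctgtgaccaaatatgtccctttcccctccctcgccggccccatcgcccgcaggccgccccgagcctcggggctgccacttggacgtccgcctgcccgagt
Ero1a (chr14:45318523-45318822, minus strand): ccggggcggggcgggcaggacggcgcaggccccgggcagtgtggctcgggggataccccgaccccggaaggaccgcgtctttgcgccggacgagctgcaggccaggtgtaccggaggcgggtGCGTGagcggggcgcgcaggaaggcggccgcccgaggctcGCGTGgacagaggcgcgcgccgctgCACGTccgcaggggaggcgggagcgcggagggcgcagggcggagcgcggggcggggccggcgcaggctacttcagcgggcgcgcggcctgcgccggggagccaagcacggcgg
Car9 (chr4:43506776-43507075, plus strand): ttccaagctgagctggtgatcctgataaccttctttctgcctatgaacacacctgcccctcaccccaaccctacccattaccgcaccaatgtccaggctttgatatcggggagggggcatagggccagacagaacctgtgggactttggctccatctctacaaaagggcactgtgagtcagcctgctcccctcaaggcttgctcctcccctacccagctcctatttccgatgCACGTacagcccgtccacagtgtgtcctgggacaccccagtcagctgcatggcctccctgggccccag
Pgk1 held ACGTG at 2 places and Pdk1 held GCGTG at 2, while Slc2a1 held 1 of each and Ero1a held 1 ACGTG and 2 GCGTG. Pfkfb3 and Car9 each held 1 ACGTG in the window shown, and a further window of Pfkfb3 also held ACGTG. A match is a run of letters and not a measured site, and a gene without one in this window can still be bound elsewhere.

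Gene counts per tumor summed to between 21727879 and 33850245 in the vehicle group and to between 16931607 and 22349873 in the BI group. Levels are given as CPM, counts scaled to library size after TMM normalization, whose factors lay between 0.984 and 1.02. A floor of 3 counts was worth between 0.0886 and 0.177 CPM, counting error only, and no member was at or under it. Gene positions given from here on are on mm9, the build used by the authors, whereas the promoter windows above are on GRCm38.p6. The label of a mammary tumor was checked against 8 epithelial markers. The keratins Krt8 and Krt18 stood at 478 ± 58.3 CPM and 578 ± 57.7 CPM (SD, n = 3) with vehicle, whereas Epcam, Krt7, Cldn4 and Cldn7 lay below 5 CPM in the mean of either group. Counts of any pair of tumors were further apart than counting error: chi-square per gene averaged 8.50 to 28.6 for pairs of the same group and 32.5 to 77.5 for pairs of different groups, so no library looked like a copy of another. No batch is named in the sources used here.

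Of the 40 members, 26 fell and 2 rose after BI treatment at an adjusted p of at most 0.05 (quasi-likelihood test of edgeR, p adjusted by Benjamini-Hochberg over 13966 genes), and 12 did not pass. Over all genes tested, 14.1% fell and 14.6% rose, 28.7% in all. The median log2 fold change of the members was -0.39, and that of all genes tested was -0.00. The fold change was negative for 35 members and positive for 5. In 23 members every BI tumor lay below every vehicle tumor, which 14% of all genes did, and in 3 members every BI tumor lay above, which 14.1% of all genes did. At the cutoffs of the study, an unadjusted p of at most 0.05 with a fold change of at least 1.5 in either direction, 8 members passed and all were lower with BI, while 3.57% of all genes tested passed as lower, 9.59% as higher and 13.2% in all. Without vehicle replicate 2, 5 members passed these cutoffs. Without vehicle replicate 3, 1 member rose, and the number of genes called over the whole table was 2504 in place of 4013. Of the 1909 tested genes with a mean log2 CPM of at least 7, 22.3% fell and 14.3% rose, with a median log2 fold change of -0.05. Of the 20 members in this class 16 fell, and of the 20 members below it 10 fell and 2 rose. These are levels in bulk tissue, in which fewer cells of a type and less RNA per cell cannot be told apart.

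**Figure D1:**
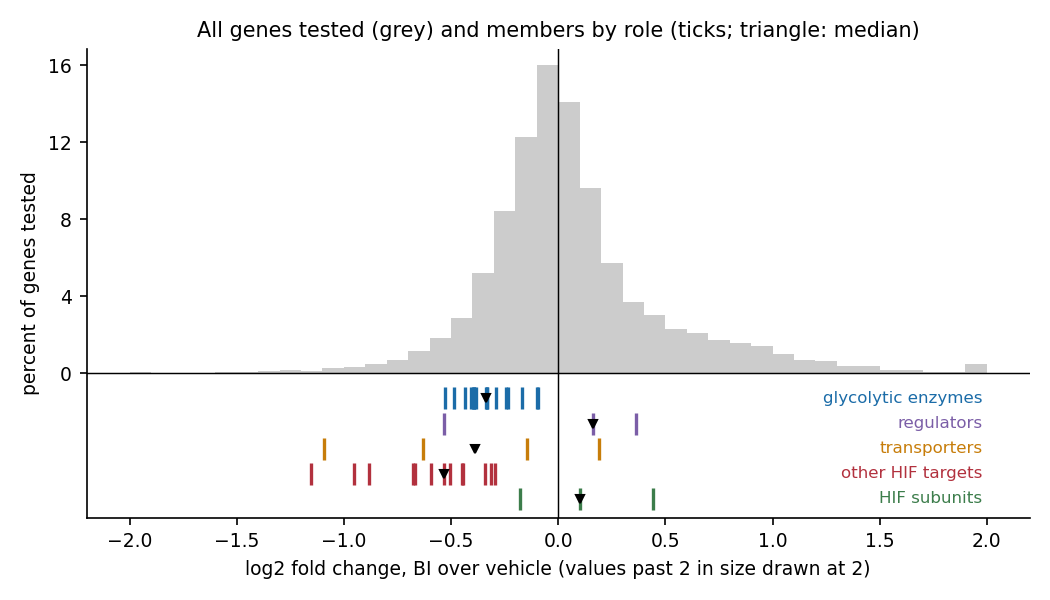
Histogram of the log2 fold change (BI over vehicle) of all 13966 genes tested, in percent of genes, with the members drawn as ticks below it by role and a triangle at each median. The 17 enzymes lie between -0.53 and -0.10 and the 13 other HIF targets between -1.15 and -0.30, while the grey distribution is centered at -0.00.

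Glucose enters the cell through carriers of the Slc2a family and lactate leaves it through Slc16a carriers. Both glucose carriers fell and neither lactate carrier passed the test. Slc2a3 (GLUT3, chr6:122677827-122751658), a high-affinity carrier prominent in neurons and leukocytes, stood at 69.2, 65.4 and 71.8 CPM in the 3 vehicle tumors and between 24.4 and 38.9 CPM (median 34.8) in the BI tumors. Every BI tumor lay below every vehicle tumor, and BI replicates 1 and 3 were the lowest, for a log2 fold change of -1.09 ± 0.13 (SE, edgeR adjusted p = 0.00014), the largest fall among the carriers. Slc2a1 (GLUT1, chr4:118781316-118809935), the widespread basal glucose carrier, stood at 346, 372 and 308 CPM with vehicle and between 189 and 241 CPM (median 225) with BI. These groups did not overlap either, and the log2 fold change was -0.63 ± 0.08 (SE, edgeR adjusted p = 0.000212). Per kilobase of transcript, Slc2a1 was the more abundant of the pair in every tumor, by a ratio of 6.61 to 8.75 with vehicle and 8.41 to 14.6 with BI, and these ranges overlapped.

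Slc16a1 (MCT1), which carries lactate and pyruvate in either direction, had a log2 fold change of 0.19 ± 0.11 (SE, edgeR adjusted p = 0.231), with levels between 442 and 527 CPM with vehicle and between 464 and 688 CPM with BI. Slc16a3 (MCT4), the carrier known for lactate export from glycolytic cells, had -0.14 ± 0.13 (SE, edgeR adjusted p = 0.423), with levels between 48.6 and 70.8 CPM and between 42.0 and 62.1 CPM. Their 95% intervals on the log2 scale ran from -0.06 to 0.44 and from -0.42 to 0.13, so the spread between tumors leaves room for changes of either sign. Per kilobase, Slc16a1 exceeded Slc16a3 in every tumor, and the ratio of Slc16a3 to Slc16a1 was 0.18 to 0.234 with vehicle and 0.125 to 0.199 with BI, with overlapping ranges.

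**Figure D2:**
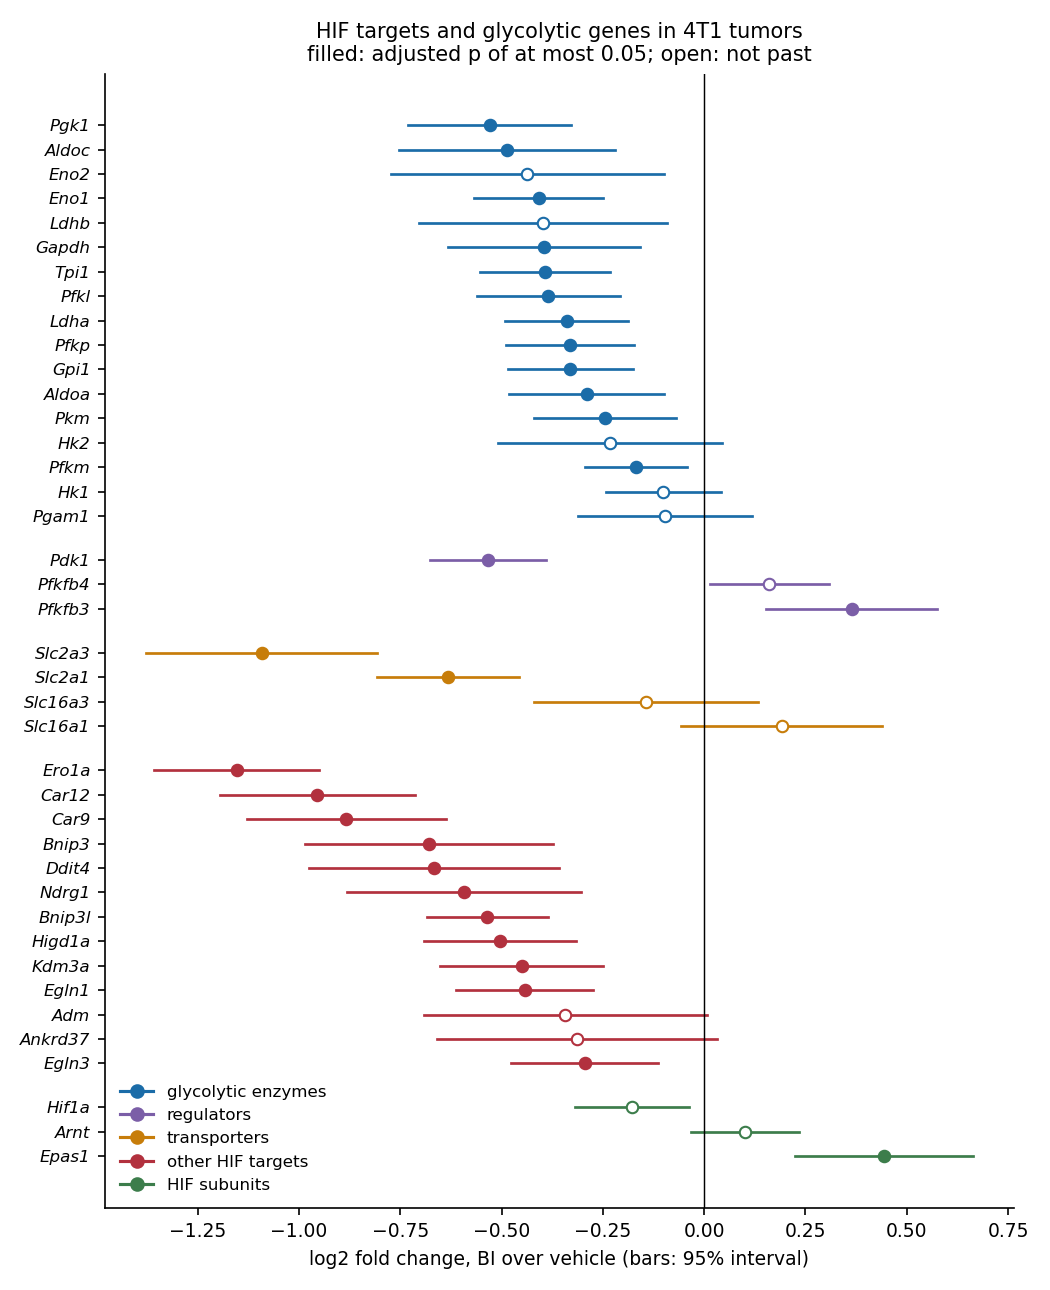
Log2 fold change of each of the 40 members (BI over vehicle) with its 95% interval, grouped by role, and filled points for an adjusted p of at most 0.05 in edgeR. All 17 enzymes and all 13 other HIF targets lie left of 0, with Ero1a at -1.15, while Epas1 (0.44) and Pfkfb3 (0.36) are the filled points to the right of it.

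The glycolytic enzymes differed by small amounts. Of the 17, 12 fell (70.6%, against 14.1% of all genes tested), and 5 did not pass. Without vehicle replicate 2, 7 fell, and the number of genes called over the whole table was 3066 in place of 4013. The median log2 fold change was -0.34, and the values ranged from -0.53 (Pgk1) to -0.10 (Pgam1). No enzyme rose, and since every log2 fold change was negative, the count of rises was 0 in edgeR at an unadjusted p of 0.05 as well as in DESeq2 and limma-voom. In 11 enzymes every BI tumor lay below every vehicle tumor, which 14% of all genes tested did. None passed the fold limit of the study. Together the enzymes took between 0.849% and 0.984% of all gene counts in vehicle tumors and between 0.699% and 0.786% in BI tumors, and their summed level was 8467 to 9935 CPM with vehicle and 7004 to 7736 CPM with BI.

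In the order of the pathway, Gpi1 (chr7:34987141-35015308), the isomerase that turns glucose phosphate into fructose phosphate, stood at 581, 672 and 564 CPM with vehicle and between 455 and 515 CPM (median 483) with BI. No BI tumor reached the lowest vehicle tumor. Its log2 fold change was -0.33 ± 0.07 (SE, edgeR adjusted p = 0.00487). Pfkl (chr10:77449692-77472828), the liver-type subunit of phosphofructokinase, the main control point of the pathway, stood at 462, 543 and 473 CPM with vehicle and between 325 and 404 CPM (median 383) with BI. Its groups were apart, with BI replicate 6 lowest. On the log2 scale the change was -0.38 ± 0.08 (SE, edgeR adjusted p = 0.00448). Tpi1 (chr6:124760604-124764314), which interconverts the triose phosphates, stood at 883, 1048 and 901 CPM with vehicle and between 692 and 793 CPM (median 701) with BI. Vehicle replicate 2 was the highest tumor and the groups did not overlap. The log2 fold change was -0.39 ± 0.07 (SE, edgeR adjusted p = 0.00227).

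Pgk1 (chrX:103382439-103399038), the phosphoglycerate kinase of the first ATP-forming step, stood at 53.2, 61.3 and 50.9 CPM with vehicle and between 33.6 and 44.5 CPM (median 38.6) with BI. BI replicate 1 was the nearest to the vehicle tumors but still below all of them, for a log2 fold change of -0.53 ± 0.09 (SE, edgeR adjusted p = 0.00149), the lowest among the enzymes. Eno1 (chr4:149610830-149622988), the common enolase, stood at 252, 276 and 240.2 CPM with vehicle and between 169 and 207 CPM (median 197) with BI. The groups were apart by more than 30 CPM. Its log2 fold change was -0.41 ± 0.07 (SE, edgeR adjusted p = 0.00176). Ldha (chr7:54096845-54110997), the lactate dehydrogenase subunit that favors lactate formation, stood at 1530.3, 1686 and 1467 CPM with vehicle and between 1152 and 1317 CPM (median 1230.0) with BI. All BI tumors were again below all vehicle tumors. On the log2 scale the change was -0.34 ± 0.07 (SE, edgeR adjusted p = 0.00401).

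The other 6 enzymes that fell were Pfkm, Pfkp, Aldoa, Aldoc, Gapdh and Pkm, with log2 fold changes from -0.49 to -0.17 and edgeR adjusted p from 0.00577 to 0.048. Of these, only Aldoc had groups that overlapped. Pfkm and Pkm were the least secure, and lost the call under 11 and 9 of the 15 alternative settings (6 other normalizations, filters or tools and 9 omissions of a tumor). The 5 enzymes that did not pass were the hexokinases Hk1 and Hk2, the mutase Pgam1, the neuronal enolase Eno2 and the lactate dehydrogenase subunit Ldhb, with log2 fold changes from -0.44 to -0.10 and edgeR adjusted p from 0.0521 to 0.492. Eno2 (-0.44) and Ldhb (-0.40) had point estimates as low as those of enzymes that passed, with wider intervals, and both passed in DESeq2 and limma-voom. Vehicle replicate 2 was the highest vehicle tumor for 16 of the 17 enzymes. Without it, 7 enzymes fell at the same threshold, with a median of -0.30, and Aldoa, Aldoc, Gapdh, Pfkm and Pkm no longer passed.

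**Figure D3:**
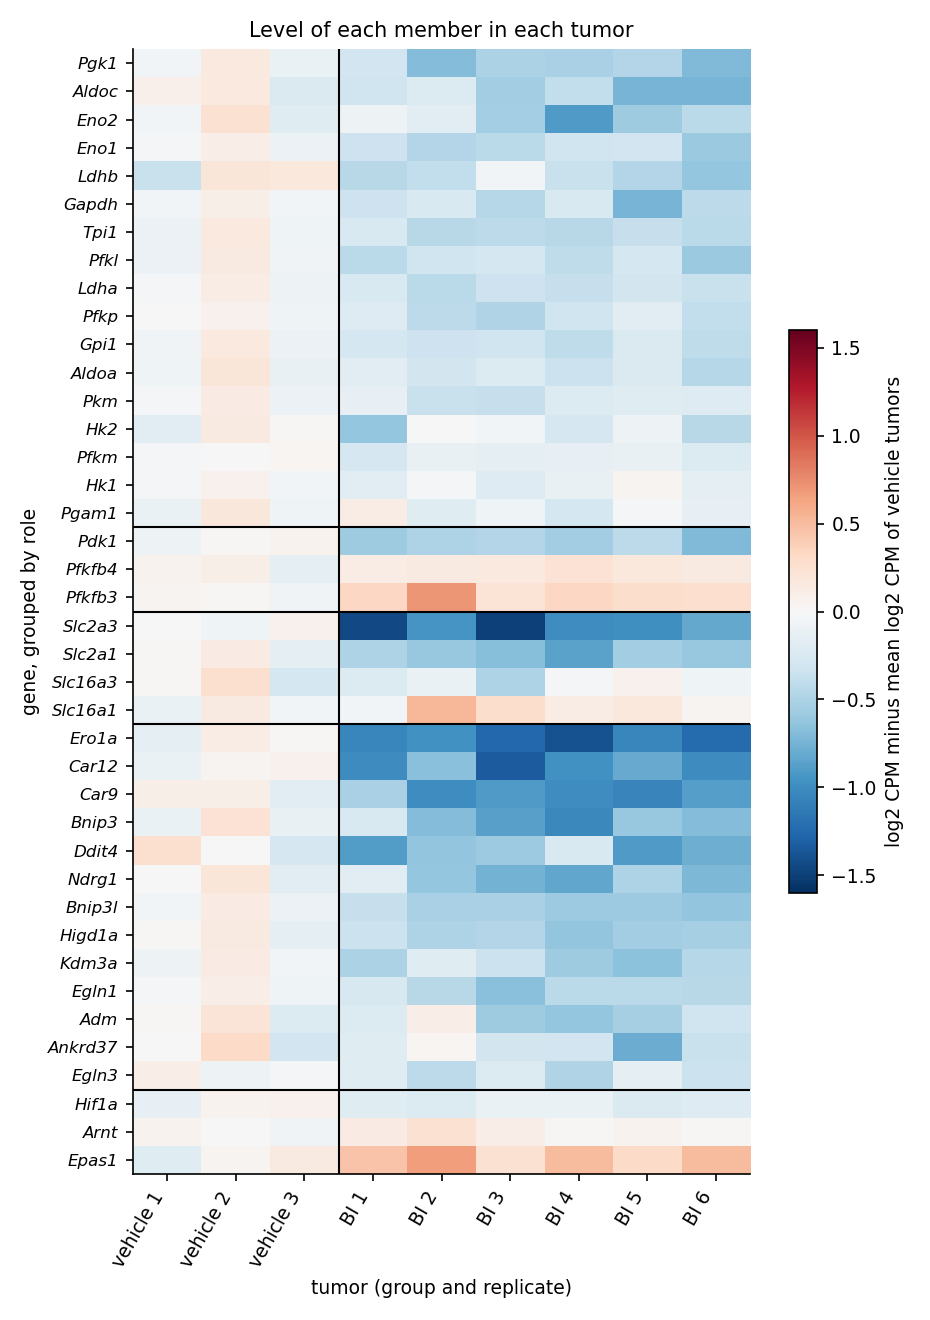
Log2 CPM of each member in each of the 9 tumors minus the mean log2 CPM of the 3 vehicle tumors, blue for lower and red for higher, with genes grouped by role. The columns of the 6 BI tumors are blue for most enzymes and other HIF targets and red for Pfkfb3, Pfkfb4 and Epas1, and vehicle replicate 2 is the reddest vehicle column for 16 enzymes.

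Enzymes of the same step were compared by level per kilobase, counted from reads with a single alignment only, which leaves uncertain the levels of genes with near-identical copies. Aldoa (982 CPM per kilobase in the mean of the vehicle tumors), Pkm (930.4), Ldha (809) and Tpi1 (589.7) had the highest counted levels, an order that does not place Pgk1, Pgam1, Gapdh and Eno1, most of whose sequence occurs elsewhere in the genome. Within pairs, the muscle-type aldolase Aldoa exceeded Aldoc by a ratio of 23.2 to 28.0 with vehicle and 24.5 to 36.9 with BI. Ldha exceeded Ldhb by 63.8 to 94.99 and by 62.5 to 90.7. The ratio of Hk2 to Hk1 was 0.711 to 0.823 and 0.569 to 0.87. In each of these pairs the ranges of the groups overlapped.

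The authors kept only reads with a single alignment, and several glycolytic genes are known to have processed pseudogene copies. Transcripts were divided into all windows of 50 bases, the read length, and each window was searched for in the rest of the mm9 genome. Pgk1 had 92.9% of its windows elsewhere, Pgam1 91.9%, Gapdh 85.6% and Eno1 72.2%. Gapdh, the dehydrogenase of the triose phosphate step and usually among the most abundant transcripts, was counted at only 14.5, 15.9 and 14.5 CPM with vehicle and between 8.96 and 12.6 CPM (median 11.5) with BI, and its windows occurred at 232 other places (this gene was singled out after its values were seen). For such genes a level per kilobase cannot be set against that of other genes, and reads of near-identical copies are uncertain. Of the 10 enzymes with 10% or more of their windows elsewhere 8 fell (median -0.37), and of the 7 enzymes with less 4 fell (median -0.33). Over all members, 12 of 14 with 10% or more fell and 14 of 26 with less fell. Of all genes tested 14.1% fell, and their shares by shared windows were not computed. All HIF subunits, regulators and transporters were in the class with less, so role and shared sequence are mixed in these counts. Among the others, Bnip3 had 61.7% of its windows elsewhere, Pkm 41.4%, Ldhb 33.6%, Bnip3l 31.7%, Gpi1 31.4%, Ldha 29.1%, Tpi1 23.6% and Higd1a 17.2%. Slc2a1, Slc16a3, Hk1, Gpi1, Pfkp, Tpi1, Car9, Ndrg1, Ankrd37 and Hif1a also share exon bases with a gene on the opposite strand. The longest overlap was that of Slc16a3, 831 bases with Csnk1d, and the shortest that of Tpi1, 34 bases with Spsb2. The use of strand in counting is not given in the sources used here. The part of shared windows or of shared exon bases in the results was not tested.

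**Figure D4:**
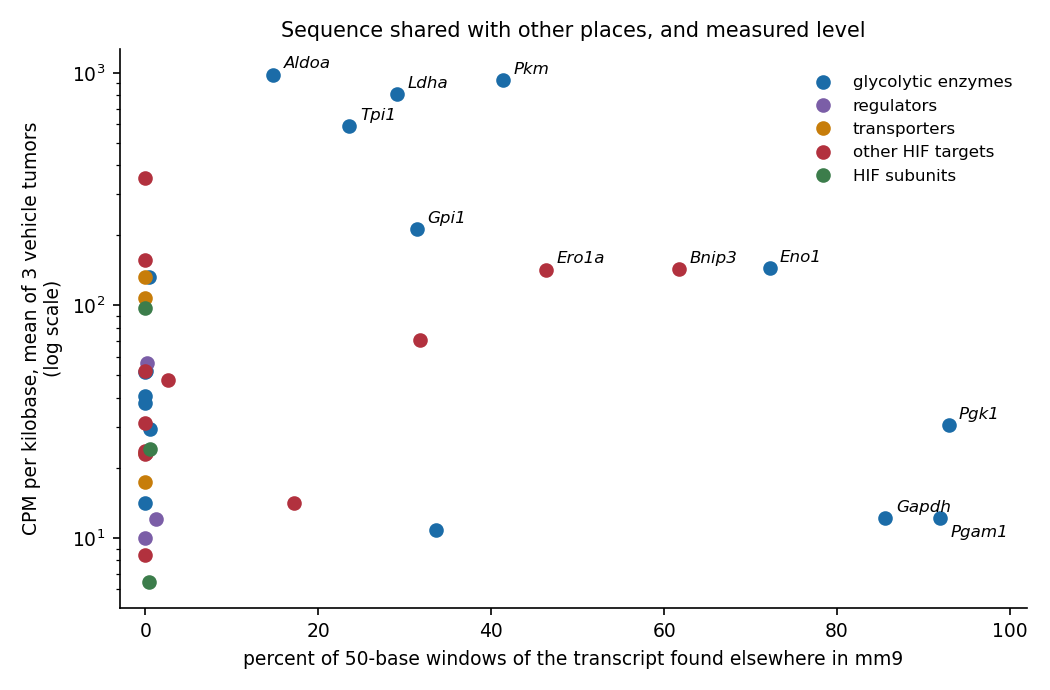
Share of the 50-base windows of each member that also occur elsewhere in mm9 (percent) against its level in the vehicle tumors (CPM per kilobase, mean of 3, log scale), colored by role. Pgk1, Pgam1 and Gapdh, at 92.9%, 91.9% and 85.6%, have levels of 30.6, 12.2 and 12.1 CPM per kilobase, and 26 members lie under 10%.

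The 3 regulators did not move together. Pdk1 (chr2:71711281-71741915), the kinase that switches off pyruvate dehydrogenase and keeps pyruvate out of the mitochondrial cycle, stood at 274, 292 and 302 CPM with vehicle and between 177 and 216 CPM (median 202) with BI. The groups were separated by more than 50 CPM. The log2 fold change was -0.53 ± 0.07 (SE, edgeR adjusted p = 0.000165). Pfkfb3 (chr2:11393057-11423728), which makes the fructose bisphosphate that activates phosphofructokinase, stood at 65.6, 64.7 and 61.4 CPM with vehicle and between 74.3 and 104 CPM (median 78.8) with BI. All BI tumors were above all vehicle tumors, and BI replicate 2 was far above the other BI tumors. Its log2 fold change was 0.36 ± 0.10 (SE, edgeR adjusted p = 0.0153). Without vehicle replicate 3 the edgeR adjusted p was 0.0706. Pfkfb4, a relative of Pfkfb3 that also makes and degrades this activator, had a log2 fold change of 0.16 ± 0.07 (SE, edgeR adjusted p = 0.0946) and did not pass, although its levels of 30.1 to 35.7 CPM with vehicle and 36.4 to 39.2 CPM with BI did not overlap.

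Of the 13 other HIF targets, 11 fell (84.6%, against 14.1% of all genes tested) and 2 did not pass. The median log2 fold change was -0.53, with a range from -1.15 to -0.30. No target rose in edgeR, DESeq2 or limma-voom, and as all 13 log2 fold changes were negative, the count at an unadjusted p of 0.05 was 0 too. In 9 of the 13 every BI tumor lay below every vehicle tumor, which 14% of all genes tested did. The cutoffs of the study were passed by 6, all lower with BI, while 3.57% of all genes tested passed as lower. The summed level of the 13 targets was 2953 to 3425 CPM with vehicle and 1792 to 2377 CPM with BI.

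Ero1a (chr14:45902879-45938237, listed as Ero1l under its older symbol) is the oxidase that supplies disulfide bonds to proteins folding in the endoplasmic reticulum. It stood at 567.6, 685 and 638 CPM with vehicle and between 238 and 322 CPM (median 286) with BI. The highest BI tumor was far under the lowest vehicle tumor. Its log2 fold change was -1.15 ± 0.09 (SE, edgeR adjusted p = 1.86e-05), and the gene ranked 28 of 13966 by p. Of its windows 46.3% also occur at 1 other place in mm9.

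Car12 (chr9:66561493-66614652) and Car9 (chr4:43519838-43526601) are carbonic anhydrases of the cell surface that help to control extracellular pH. Car12 stood at 81.8, 90.4 and 92.1 CPM with vehicle and between 34.9 and 55.3 CPM (median 44.4) with BI. The groups did not overlap, and BI replicate 3 was lowest. On the log2 scale the change was -0.95 ± 0.11 (SE, edgeR adjusted p = 0.000115). Car9 stood at 48.02, 48.2 and 39.7 CPM with vehicle and between 21.6 and 31.6 CPM (median 23.4) with BI. BI replicate 1 was above the other BI tumors but below every vehicle tumor. The log2 fold change was -0.88 ± 0.11 (SE, edgeR adjusted p = 0.000216).

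Mitochondrial targets fell as well. Bnip3l (chr14:67604076-67627714), a receptor for the removal of mitochondria by autophagy, stood at 223, 253 and 216 CPM with vehicle and between 148 and 178 CPM (median 157) with BI. The groups were apart, for a log2 fold change of -0.53 ± 0.07 (SE, edgeR adjusted p = 0.00022). Higd1a (chr9:121757678-121767118), a small hypoxia-induced protein of the inner mitochondrial membrane, stood at 26.7, 29.2 and 23.6 CPM with vehicle and between 16.99 and 20.8 CPM (median 18.5) with BI. These did not overlap either. Its log2 fold change was -0.50 ± 0.09 (SE, edgeR adjusted p = 0.00135). Bnip3, the relative of Bnip3l with the same role, fell with a log2 fold change of -0.68 ± 0.14 (SE, edgeR adjusted p = 0.00406).

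The oxygen-sensing prolyl hydroxylases are themselves HIF targets and form a feedback on it. Egln1 (chr8:127432496-127473154), the main hydroxylase of HIF in most tissues, stood at 164, 181 and 161 CPM with vehicle and between 106 and 141 CPM (median 124) with BI. BI replicate 1 was the highest and BI replicate 3 the lowest, and the groups were apart. On the log2 scale the change was -0.44 ± 0.08 (SE, edgeR adjusted p = 0.00157). Egln3 (chr12:55279968-55304847), the hydroxylase most strongly induced by hypoxia in many cells, stood at 449.6, 393 and 412 CPM with vehicle and between 298 and 379.5 CPM (median 345) with BI. The gap between the groups was small. The log2 fold change was -0.30 ± 0.08 (SE, edgeR adjusted p = 0.021), and without vehicle replicate 1 or 3 the gene no longer passed, with an edgeR adjusted p of up to 0.104.

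The other 3 that fell were Ndrg1, a stress-responsive gene at 354 CPM per kilobase in the mean of the vehicle tumors, Ddit4, an inhibitor of the growth kinase mTORC1, and Kdm3a, a histone demethylase. Their log2 fold changes were -0.59, -0.67 and -0.45 (edgeR adjusted p = 0.00638, 0.00474 and 0.00393). For Ndrg1 and Ddit4, 5 of the 6 BI tumors lay below all vehicle tumors, with BI replicate 1 and BI replicate 4 as the respective exceptions. The targets that did not pass were Adm, the vasodilator peptide adrenomedullin (-0.34, edgeR adjusted p = 0.13), and the ankyrin repeat gene Ankrd37 (-0.31, edgeR adjusted p = 0.158), both under 30 CPM in every tumor.

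Most enzymes and the glucose carriers are known HIF targets too, so the division into enzymes and other HIF targets is one of role. Both were set side by side within each tumor. The mean log2 CPM of the 17 enzymes exceeded that of the 13 targets by 0.57, 0.64 and 0.68 in the vehicle tumors and by 0.83, 0.83, 0.99, 0.97, 0.98 and 0.85 in the BI tumors. The gap was wider in every BI tumor than in any vehicle tumor, as a description with no test over the lists. The medians of the fold changes, which come from the same counts, were -0.34 for enzymes and -0.53 for the targets. They kept this order under all 15 alternative settings, which use the same tumors and are no independent support. Vehicle replicate 2 was the highest vehicle tumor for 10 of the 13 targets, and 11 targets still fell without it, while the median moved to -0.46.

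**Figure D5:**
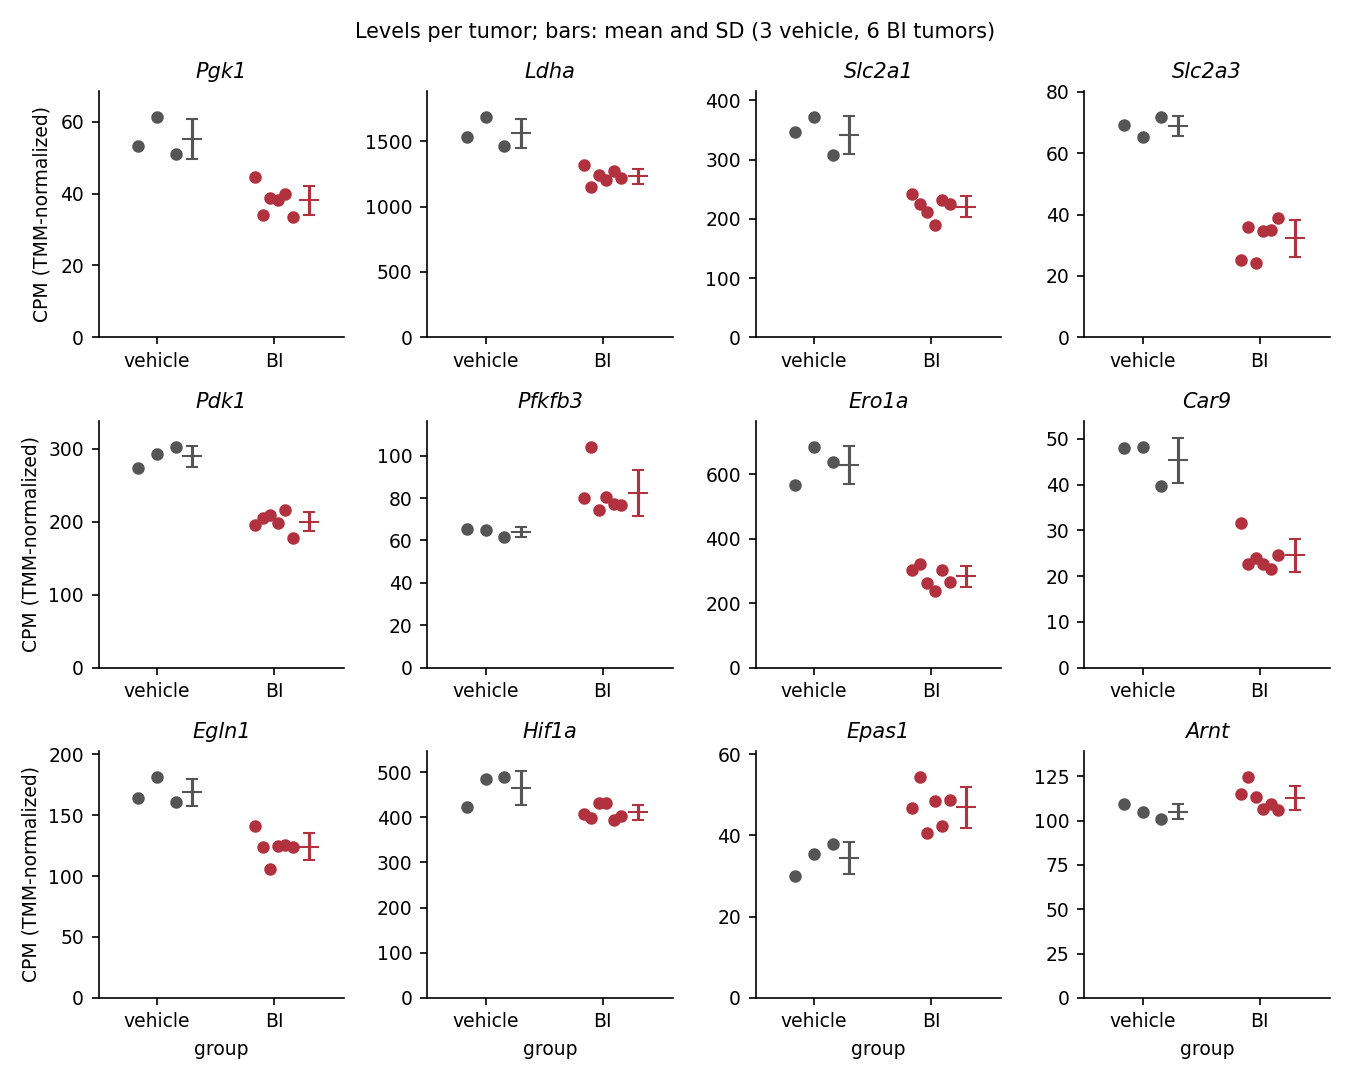
CPM of 12 members in each of the 3 vehicle tumors (grey) and 6 BI tumors (red), with the mean and SD beside the points and axes starting at 0. Ero1a falls from 567.6 to 685 CPM down to 238 to 322 CPM, Epas1 rises from 30.1 to 37.9 CPM up to 40.6 to 54.3 CPM, and the groups overlap for Hif1a and Arnt.

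The alpha subunits showed opposite signs. Hif1a (chr12:75002362-75048517) stood at 422, 484 and 488 CPM with vehicle and between 394 and 432 CPM (median 405) with BI. The groups overlapped, since BI replicates 3 and 4 exceeded vehicle replicate 1. With a log2 fold change of -0.18 ± 0.06 (SE, edgeR adjusted p = 0.0557), it did not pass, though it did in DESeq2 and without vehicle replicate 1. Epas1 (chr17:87153247-87232750), the alpha subunit prominent in endothelium and in some macrophages, stood at 30.1, 35.3 and 37.9 CPM with vehicle and between 40.6 and 54.3 CPM (median 47.7) with BI. Every BI tumor was above every vehicle tumor. Its log2 fold change was 0.44 ± 0.10 (SE, edgeR adjusted p = 0.00678). Arnt (chr3:95238310-95301162), the shared partner, stood at 109, 105 and 101 CPM with vehicle and between 106 and 124 CPM (median 112) with BI. The groups overlapped, and the log2 fold change was 0.10 ± 0.06 (SE, edgeR adjusted p = 0.24). Per kilobase, Hif1a exceeded Epas1 by a ratio of 14.5 to 15.8 in vehicle tumors and 8.26 to 11.9 in BI tumors, and these ranges did not overlap.

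Beyond the members, 26 further HIF responsive genes were listed. Of these 13 fell (50%) and 1 rose (3.85%), against 14.1% and 14.6% of all genes tested. The median log2 fold change was -0.38. The smallest p among the falls belonged to Plod2, a collagen lysyl hydroxylase (195 ± 13.1 CPM (SD, n = 3) with vehicle and 105 ± 5.10 CPM (n = 6) with BI, log2 fold change -0.90 ± 0.06 SE, edgeR adjusted p = 8.76e-06). Ccng2, a cyclin that restrains proliferation, stood at 158 ± 2.91 CPM (SD, n = 3) with vehicle and 95.7 ± 6.27 CPM (n = 6) with BI (log2 fold change -0.72 ± 0.06 SE, edgeR adjusted p = 1.86e-05). Gys1, the glycogen synthase of muscle and most other tissues, stood at 144 ± 5.81 CPM (SD, n = 3) with vehicle and 95.9 ± 7.29 CPM (n = 6) with BI (log2 fold change -0.59 ± 0.07 SE, edgeR adjusted p = 0.000106). The riser was Stc2, a secreted glycoprotein at 2.28 ± 0.319 CPM (SD, n = 3) with vehicle and 3.62 ± 0.794 CPM (n = 6) with BI (log2 fold change 0.67 ± 0.21 SE, edgeR adjusted p = 0.0324), which lost the call without any of vehicle replicates 1 to 3 or BI replicate 4. Vegfa, the best known angiogenic target of HIF, stood at 161 ± 28.8 CPM (SD, n = 3) with vehicle and 138 ± 19.6 CPM (n = 6) with BI and did not pass (log2 fold change -0.22 ± 0.13 SE, edgeR adjusted p = 0.208), and was named outside the rule for named genes.

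Among 12 tested regulators of the HIF pathway, 3 fell and 1 rose (33.3% called, near the 28.7% of all genes tested), with a median log2 fold change of 0.02. Cited2, a HIF-induced competitor for its coactivator, stood at 139 ± 1.83 CPM (SD, n = 3) with vehicle and 84.6 ± 6.60 CPM (n = 6) with BI (log2 fold change -0.71 ± 0.07 SE, edgeR adjusted p = 3.68e-05). Vhl, the subunit that recognizes hydroxylated HIF, had -0.23 ± 0.07 (SE, edgeR adjusted p = 0.0232) and no longer passed without vehicle replicate 1 or 3. Hsp90ab1, a chaperone, had -0.21 ± 0.07 (SE, edgeR adjusted p = 0.0462) and lost the call under 10 of the 15 settings, among them the omission of any vehicle tumor. Arnt2, a relative of Arnt, had 1.6 ± 0.44 (SE, edgeR adjusted p = 0.0176) at a level of 0.591 ± 0.31 CPM (SD, n = 3) with vehicle and 1.72 ± 0.697 CPM (n = 6) with BI, and did not pass without vehicle replicate 3.

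Among 16 tested further genes of glycolysis and gluconeogenesis, 4 fell and 4 rose (50% called, against 28.7% of all genes tested), with a median log2 fold change of -0.00. Falls were led by Pgm1, which links glycogen to glycolysis (-0.42, edgeR adjusted p = 0.000475), the muscle enolase Eno3 (-0.52, adjusted p = 0.0008) and the mitochondrial carboxykinase Pck2 (-0.32, adjusted p = 0.00392). Rises were led by Hk3, a hexokinase of myeloid cells (0.61, edgeR adjusted p = 0.000549), the pyruvate carboxylase Pcx (0.56, adjusted p = 0.00862) and Bpgm, known from red cells (0.41, adjusted p = 0.0233). Bpgm no longer passed without vehicle replicate 1 (edgeR adjusted p = 0.0972) or 2. Hk3 stood at 67.1 ± 4.07 CPM (SD, n = 3) with vehicle and 102.4 ± 11.3 CPM (n = 6) with BI.

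Markers of other cells moved between the same groups. Of all genes tested 14.6% rose and 14.1% fell, and the 12.5% of fibroblast markers that rose lay near that share. Of 9 macrophage markers 8 rose, with a summed level of 1659 to 2238 CPM with vehicle and 3274 to 4087 CPM with BI. Of 9 T and NK cell markers 8 rose (66.1 to 73.9 and 129 to 177 CPM), of 8 endothelial markers 3 rose (409 to 420.3 and 459 to 553 CPM) and of 8 fibroblast markers 1 rose (1904 to 3313 and 2530 to 5688 CPM). Of 9 neutrophil markers 4 fell (1098 to 1281 and 381 to 864 CPM), and of 12 proliferation genes 6 fell (2311 to 3137 and 1577 to 2325 CPM). Of 8 epithelial markers 2 fell, Krt8 and Krt18, which make up most of the summed level of the list (963 to 1190.2 and 758 to 967 CPM). The other 6 did not pass, 5 of the 8 had positive fold changes, the median log2 fold change was 0.13, and the mean log2 CPM of the list overlapped between groups (3.46 to 3.69 and 3.29 to 4.24). No macrophage, T and NK cell, neutrophil or endothelial marker was at 0 in the mean of either group. These differences ran between the same tumors as the falls of the enzymes, the carriers and the other HIF targets and the rises of Epas1 and Pfkfb3, and their part in these results was not tested.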

How the data were processed

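Messenger RNA libraries of 9 tumors were prepared by the authors with a strand-specific kit and sequenced from both ends at 50 bases. The paper states that tumors without sufficient RNA quality were left out of its analysis. The authors aligned reads to mm9 with STAR, kept unique alignments and counted them per RefSeq gene with QuasR. The deposited values are raw counts of 18755 genes, with no normalization. Whether strand and both mates were used is not given in the sources used here, and 10 members share exon bases with a gene on the opposite strand. Gene symbols were assigned from RefSeq through Entrez numbers (18700 of 18755, all 40 members), positions from GENCODE on mm9.

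Counts were tested in R 4.3.3 with edgeR 4.0.16: TMM, filterByExpr (minimum count 10, minimum total 15) and the quasi-likelihood test without covariates on all genes. In simulated data of 13863 genes, 155 of 200 changed genes were recovered, with 6 false calls. A gene that did not pass can therefore still differ. Alternatives were RLE or library size, no filter, 1 CPM in 3 tumors, DESeq2 1.42.0, limma-voom (limma 3.58.1) and omission of each tumor. SE are the log2 fold change divided by the root of its F statistic. The members and lists were chosen with earlier results of these data known. Named are the up to 6 passing members with the smallest p per role and direction, Slc2a1, Ldha, Pgk1, Car9, Egln3 and the subunits, and up to 3 genes per direction of each further list. Of 223 list entries 219 had counts. The labels number tumors individually, and each p-value sets the difference between the groups against the spread between tumors.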

Additional observations from a re-analysis of the deposited data

Results flagged for a closer look

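Each member was examined for a single BI tumor lying far from the other 5, by the gap to its nearest neighbor over the range of log2 CPM (the 3 vehicle tumors are too few for this). This was done for 40 genes, of which chance alone picks about 1 in 20, and the 2 genes found do not exceed that share. For Pfkfb3, BI replicate 2 stood at 104 CPM while the other 5 BI tumors lay between 74.3 and 80.6 CPM (gap over range 0.758). For Car9, BI replicate 1 stood at 31.6 CPM while the others lay between 21.6 and 24.6 CPM (gap over range 0.663). Without these tumors the call of neither gene changed.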

How the results depend on the processing

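Of 600 recomputed fold changes (40 members under 15 settings), 559 kept their call, 28 lost it, 13 gained it and 0 changed sign past the threshold. With other normalizations, filters or tools, 25 to 29 members, 11 to 14 enzymes and 11 other HIF targets fell. With each tumor omitted in turn, all genes called ranged from 2504 (without vehicle replicate 3) to 3984, against 4013. Members that fell ranged from 21 to 27, those that rose from 1 (without vehicle replicate 3, when Pfkfb3 lost its call) to 2, enzymes that fell from 7 (without vehicle replicate 2) to 12, other HIF targets that fell from 10 to 12, and members past the study cutoffs from 5 (without vehicle replicate 2) to 10. No setting moved the median of all genes by more than 0.1 on the log2 scale. Calls lost were those of Pfkm (11 settings), Pkm (9), Aldoa, Aldoc and Egln3 (2 each), Gapdh and Pfkfb3 (1 each), and calls gained were those of Eno2 and Ldhb (5 each), Hif1a (2) and Adm (1). Omitting a tumor leaves fewer samples, and the omission of a vehicle tumor leaves 2 of them. No paired analysis was done, because no label pairs a BI tumor with a vehicle tumor.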

Other observations

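Of 22 tested genes of glucose carriers and of pyruvate and lactate handling, 4 fell and 2 rose in RNA level (27.3% called, against 28.7% of all genes tested). Txnip, an arrestin-like protein that limits glucose uptake, stood at 239 ± 14.8 CPM (SD, n = 3) with vehicle and 352 ± 45.6 CPM (n = 6) with BI (log2 fold change 0.56 ± 0.10 SE, edgeR adjusted p = 0.00211). Slc16a7, the lactate and pyruvate carrier MCT2, stood at 3.58 ± 0.193 CPM (SD, n = 3) with vehicle and 7.26 ± 0.793 CPM (n = 6) with BI (log2 fold change 1.02 ± 0.13 SE, edgeR adjusted p = 0.000239). Bsg, the chaperone that brings lactate carriers to the cell surface, stood at 659 ± 63.97 CPM (SD, n = 3) with vehicle and 511 ± 27.9 CPM (n = 6) with BI (log2 fold change -0.37 ± 0.07 SE, edgeR adjusted p = 0.00327). The pyruvate dehydrogenase subunits Pdhb and Dld had log2 fold changes of -0.22 ± 0.05 (SE) and -0.20 ± 0.05 (SE, edgeR adjusted p = 0.00788 and 0.0113), and Dld did not pass without vehicle replicate 3. In these tumors Txnip and Slc16a7 were higher in each BI tumor than in each vehicle tumor, while Bsg was lower in each.

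The pentose phosphate pathway branches off glycolysis after its first step and supplies NADPH and ribose. Of its 8 genes 2 fell and 1 rose (37.5% called, near the 28.7% of all genes tested), with a median log2 fold change of 0.01. G6pdx, the dehydrogenase of the first step, stood at 124 ± 7.62 CPM (SD, n = 3) with vehicle and 143 ± 4.84 CPM (n = 6) with BI (log2 fold change 0.20 ± 0.06 SE, edgeR adjusted p = 0.017), and lost the call without vehicle replicate 1 or 2. H6pd, its relative in the endoplasmic reticulum, stood at 138 ± 1.88 CPM (SD, n = 3) with vehicle and 112 ± 9.66 CPM (n = 6) with BI (log2 fold change -0.30 ± 0.07 SE, edgeR adjusted p = 0.00862). The transketolase Tkt stood at 374 ± 20.1 CPM (SD, n = 3) with vehicle and 319.6 ± 14.6 CPM (n = 6) with BI (log2 fold change -0.22 ± 0.06 SE, edgeR adjusted p = 0.0154), and did not pass without vehicle replicate 2.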
